A study of Mus musculus with 6 samples.

Results

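Formins are the proteins that start unbranched actin filaments and stay on the growing end while the filament lengthens. A set of 10 mouse formin genes was listed by name (Diaph1, Diaph2, Diaph3, Daam1, Daam2, Fmnl2, Fmnl3, Inf2, Fhod1 and Fhod3), with no threshold on the values of their mRNAs. The members were chosen with earlier results of these data known, so the list is not independent of them. Of these 10 genes, 9 had a probe set that the platform's annotation gives to that gene alone, out of 19938 genes measured in all. Fmnl3 had no such probe set and is not analysed here.

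The study compared RNA that co-precipitated with Staufen2, a double-stranded RNA-binding protein of mRNA transport, with total input RNA. Both kinds of RNA came from a line of immortalized mouse podocytes, the epithelial cells of the kidney filter, after differentiation in culture. Cells were propagated at 33 °C with gamma-interferon and differentiated at 37 °C without it, and cytoplasmic lysate was incubated with an antibody to endogenous Staufen2 that protein G beads then captured. There were 3 arrays of input RNA and 3 of pulldown RNA, each labelled from 100 ng. The labels name no further treatment of either group, the line stands for podocytes only as far as a cultured line can, and a control-antibody pulldown is not analysed here. Higher values therefore say what was recovered relative to input, and binding to Staufen2 itself was not measured.

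The proline-rich part of a formin recruits actin monomers bound to profilin, and a ring-shaped dimer of the conserved formin homology domain adds them to the filament's barbed end. Most formins fold back on themselves and are opened by small GTPases. Podocytes rely on actin bundles in their foot processes, and inherited changes in the human genes INF2 and DAAM2 cause kidney disease with loss of protein into the urine.

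Values are log2 expression values per probe set, and differences are pulldown minus input on the same scale. The array medians lay between 6.53 and 6.54, and the median over the probe sets (6.54) serves as a mark under which signal can be background. Arrays of one group correlated at 0.998 to 0.999, and arrays of different groups at 0.982 to 0.983. Nothing in the labels ties the replicates to separate cultures, and the p-values measure the spread between these arrays, which may be technical. Of the podocyte markers, Wt1 (9.57 in the input), Synpo (8.29), Cd2ap, Actn4 and Kirrel lay above that mark, whereas the slit diaphragm gene Nphs1 (6.30), Podxl (6.04), Ptpro and Tcf21 lay below it. All 5 endothelial markers lay below the mark in both groups, as did 4 of 5 immune markers, while 4 of 6 tubular and parietal markers lay above it in at least 1 group. Of 4 mesangial markers, Pdgfrb (11.45 in the input) was well above it and Des (6.48 in the input, 6.60 in the pulldown) lay close to it. Itga8 (5.21 in the input) and Pdgfra (6.07) lay below it in both groups. Whether other cells contribute to the formin values was not tested. Stau2 mRNA itself averaged 10.78 ± 0.018 on the input arrays and 10.75 ± 0.018 on those of the pulldown (mean ± SD, n = 3). The antibody binds the protein, so this level does not check the pulldown.

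All 9 measured formin mRNAs were higher in the pulldown than in the input, by 0.24 for Inf2 to 1.05 for Diaph3 (log2 difference), or 1.18-fold to 2.07-fold. Each of the 9 had an adjusted p under 0.05 by limma over all genes, and none was lower. The background is high in these data: 31.3% of all genes tested were called higher and 17.3% lower. Among the 12156 genes whose higher group mean exceeded 6.54, 45.9% were called higher. The median difference of the 9 formins was 0.66, against 0.04 over all genes, of which the middle range between the quartiles ran from -0.04 to 0.19. Every one of the 9 lay above that upper quartile, in a list chosen with earlier results of these data known. Of all 13 mouse formins measured, 10 were called higher. In all 9 the lowest pulldown array was above the highest input array, a pattern found in 36.4% of all genes. After cyclic loess normalization, which scales the arrays by intensity, all 9 were again called higher with a median difference of 0.55, against a background of 25.7%. Over all genes the split of calls was 6246 higher to 3459 lower as deposited and 5127 to 4565 after cyclic loess.

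**Figure D1:**
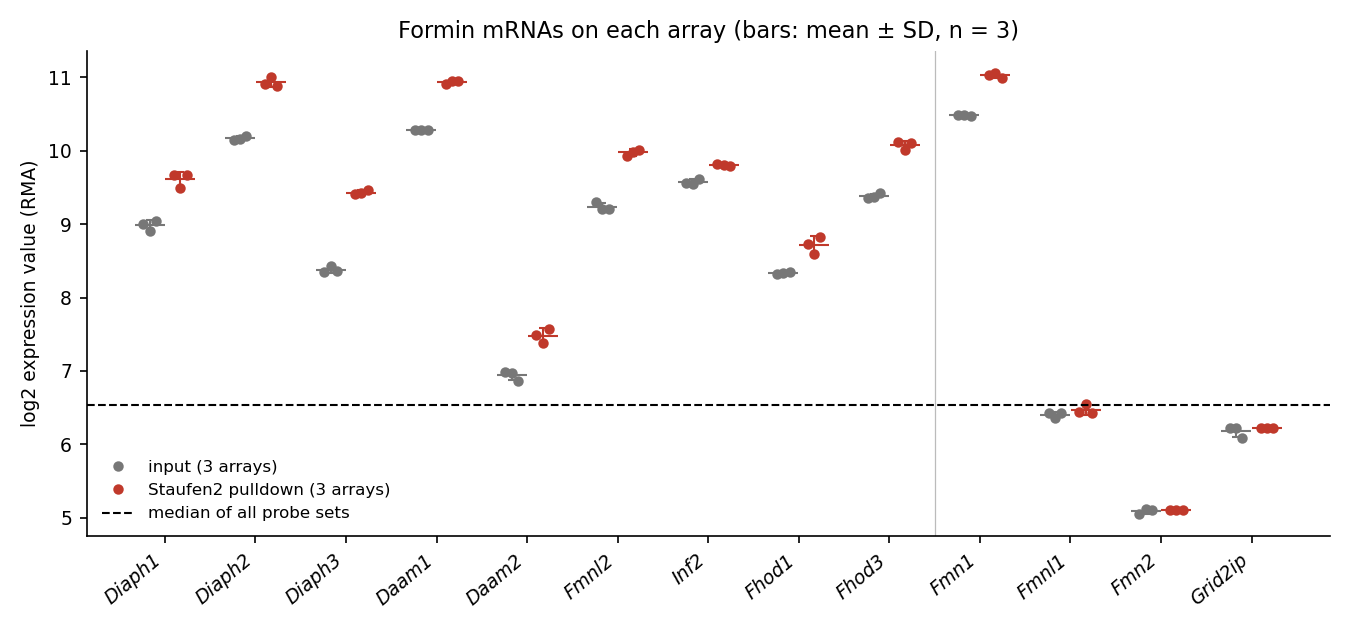
Log2 expression values (vertical axis) of 13 formin mRNAs (horizontal axis) on each of 3 input arrays (grey) and 3 Staufen2 pulldown arrays (red), with bars for mean ± SD and a dashed line at the median of all probe sets (6.54). The pulldown points lie above the input points without overlap for the 9 listed formins and Fmn1, while Fmnl1, Fmn2 and Grid2ip lie near or below the dashed line with overlapping groups.

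The diaphanous formins build stress fibres, filopodia and the contractile ring. Diaph3, which has a part in cytokinesis and filopodia, read 8.34, 8.43 and 8.35 on the input arrays and 9.41, 9.42 and 9.46 on the pulldown arrays. Its groups lay about a whole log2 unit apart with little spread inside either. The difference of 1.05 ± 0.034 (SE) made it the sole formin at least 2-fold higher (limma adjusted p = 4.3e-07), and 1.67% of all genes reached that size. Only 1.25% of genes had a larger difference.

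Diaph2, a diaphanous formin linked to ovarian function and endosome movement, read 10.15, 10.16 and 10.20 in the input and 10.91, 11.01 and 10.88 in the pulldown. The groups did not overlap, and the difference was 0.76 ± 0.039 (adjusted p = 2.4e-06). Diaph1, best known for stress fibres, gave 8.995, 8.91 and 9.04 in the input against 9.67, 9.50 and 9.67 in the pulldown. The second replicate was the lowest of its group on both sides, and the difference of 0.63 ± 0.058 (adjusted p = 5.3e-05) had the largest standard error of the 9.

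The Daam formins bind Dishevelled and act in Wnt and planar polarity signalling. Daam1 stood at 10.28, 10.28 and 10.29 in the input and at 10.91, 10.95 and 10.95 in the pulldown. This was the tightest input group of the family, and the difference was 0.66 ± 0.027 (limma adjusted p = 9.1e-07). For Daam2 the input arrays gave 6.98, 6.97 and 6.86 and the pulldown arrays 7.49, 7.38 and 7.57. Daam2 was the listed formin nearest the median of all probe sets, 0.40 above it in the input, where background can compress a difference. Its difference was 0.54 ± 0.057 (adjusted p = 0.00011).

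Fmnl2 is an effector of Cdc42 that works at the front of lamellipodia and in filopodia. Its mRNA read 9.30, 9.21 and 9.20 in the input and 9.93, 9.99 and 10.01 in the pulldown, and no pulldown array came near the input range. The difference was 0.74 ± 0.038 (limma adjusted p = 2.4e-06).

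Inf2, which can sever filaments as well as extend them and acts at the endoplasmic reticulum, moved least. The input arrays read 9.55, 9.54 and 9.62, and those of the pulldown 9.82, 9.81 and 9.79. The groups were still separate, with a difference of 0.24 ± 0.031 (limma adjusted p = 0.00037) and a 95% interval of 0.17 to 0.31. After cyclic loess it was 0.12 (adjusted p = 0.012), and 22.3% of all genes had a larger difference than Inf2 in the deposited values.

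Fhod1, a formin of stress fibres regulated by the kinase ROCK, gave 8.32, 8.33 and 8.35 in the input and 8.73, 8.59 and 8.82 in the pulldown. Its pulldown arrays were the most scattered of the 9 (SD 0.12) and its difference was 0.38 ± 0.058 (adjusted p = 0.00091). Fhod3, known for sarcomere assembly in heart muscle, gave 9.36, 9.36 and 9.42 in the input and 10.11, 10.02 and 10.11 in the pulldown. The difference was 0.70 ± 0.037 (limma adjusted p = 2.9e-06), with both groups narrow.

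A stricter test, which asks whether a difference exceeds 1.2-fold (limma's treat), called 7 of the 9 formins higher against 15.2% of all genes. Fhod1 (adjusted p = 0.15) and Inf2 (adjusted p = 1) no longer passed it. Beyond this test, no alternative ended the call of any of the 9.

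**Figure D2:**
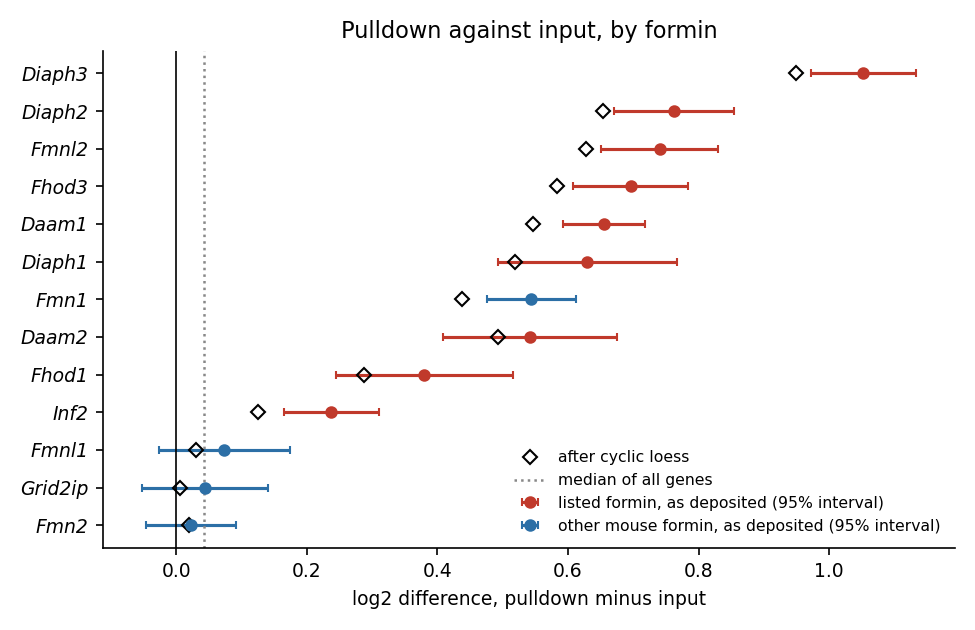
Log2 difference, pulldown minus input (horizontal axis), of 13 formins, with 95% intervals from limma (listed formins in red, other mouse formins in blue), the same after cyclic loess (open diamonds) and the median of all genes (0.04, dotted). The listed formins run from Inf2 (0.24) to Diaph3 (1.05), and the loess values are smaller but stay above 0.

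The remaining mouse formins were taken as a list of 4, and 1 of them was called higher. Fmn1, a formin of limb and kidney development, read 10.49, 10.49 and 10.48 in the input and 11.04, 11.06 and 10.99 in the pulldown. Its difference of 0.54 ± 0.029 (limma adjusted p = 2.7e-06) lay within the range of the listed formins. Fmnl1 of leukocytes (0.07, adjusted p = 0.20), Grid2ip, the delphilin of Purkinje cell synapses (0.04, adjusted p = 0.42), and Fmn2 of the oocyte spindle (0.02, adjusted p = 0.57) did not pass. Their input means of 6.40, 6.17 and 5.09 fall short of the 6.54 mark, where signal can be background. The 3 pulldown arrays gave one and the same value for Fmn2 (5.11) and one for Grid2ip (6.22), to the 4 decimals kept.

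Ordered by difference, the formins ran Diaph3, Diaph2, Fmnl2, Fhod3, Daam1, Diaph1, Daam2, Fhod1 and Inf2. For each pair of neighbours the log2 difference between the genes was taken within every array and compared between pulldown and input. Diaph3 stood apart from Diaph2 by 0.29 and Daam2 from Fhod1 by 0.16 without overlap between the groups of arrays. The other neighbours, from Diaph2 down to Daam2 and Fhod1 with Inf2, were 0.02 to 0.14 apart and their within-array values overlapped. The order within each of these neighbouring pairs therefore does not exceed the spread. Neighbours were set by sorting these same differences, so a lack of overlap is a description here and not a test. Genes further apart in the order were not compared in this step.

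Paralogues were set against each other in the same way, in 5 pairs. With 3 arrays against 3, an exact permutation p cannot be below 0.10, so no pair could pass at 0.05. Diaph3 shifted further than Diaph1, by 0.42, and further than Diaph2, by 0.29 (exact permutation test, 2-sided, p = 0.10 each, adjusted over the 5 pairs p = 0.17). Between Fhod3 and Fhod1 the gap was 0.32 (exact p = 0.10, adjusted p = 0.17). In these 3 pairs the arrays of both groups did not overlap. Diaph2 and Diaph1 differed by 0.13 (exact p = 0.30) and Daam2 and Daam1 by -0.11 (exact p = 0.30), with overlapping arrays.

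**Figure D3:**
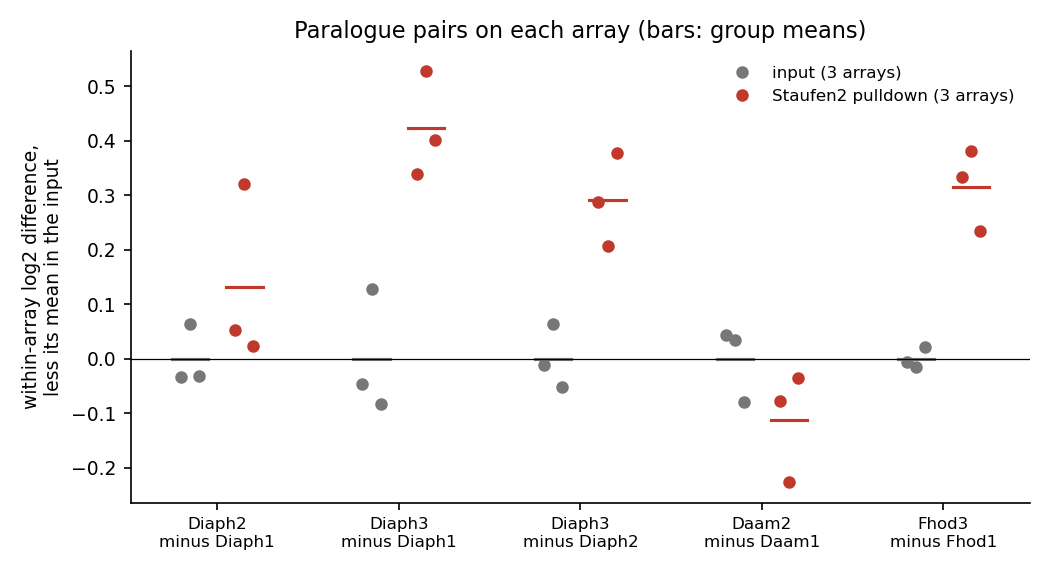
Within-array log2 difference between paralogous formins, less its mean over the input arrays (vertical axis), for 5 pairs (horizontal axis) on 3 input arrays (grey) and 3 pulldown arrays (red), with bars for group means. The pulldown points of Diaph3 against Diaph1 (mean shift 0.42), Diaph3 against Diaph2 (0.29) and Fhod3 against Fhod1 (0.32) lie above all input points, and the other pairs overlap.

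Among the 9 listed formins, those with the longest genes had the largest differences. Genomic span, which includes introns and is only a coarse measure of the size of an mRNA, was 716 kb for Diaph2, 486 kb for Diaph3, 425 kb for Fhod3 and 276 kb for Fmnl2, and these were higher by 0.70 to 1.05. Daam1 (161 kb), Daam2 (108 kb) and Diaph1 (92.0 kb) stood between 0.54 and 0.66. Inf2 (26.8 kb) and Fhod1 (18.9 kb), the shortest, had the smallest differences. Spearman's rank correlation of span and difference was 0.93 over the 9 formins, and 0.92, 0.90 and 0.82 with each pulldown array set against the input mean. With Fmn1 (389 kb), which stood at 0.54, it was 0.85 over 10 genes. Fmn2 (321 kb, difference 0.02), Fmnl1 and Grid2ip were left out of these correlations. Their input means lay below 6.54, where signal can be background. The points share the same 6 arrays and genes are not independent replicates, so these are descriptions.

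The same relation ran through the transcriptome, with a rank correlation of 0.48 over the 11764 coding genes with a group mean above 6.54. In those genes the median difference was -0.10 for spans under 10 kb, 0.05 for 10 to 30 kb, 0.27 for 30 to 100 kb, 0.42 for 100 to 300 kb and 0.40 above 300 kb. The share called higher went from 19.9% in the shortest class to 75.1% and 74.2% in the longest classes. Each of the 9 formins lay above the median of its own span class, by 0.12 for Daam2 to 0.65 for Diaph3. Diaph3 exceeded 90.3% of genes of its class, Fhod1 82.2%, Diaph1 80.0% and Daam2 61.1%. Diaph2, Fhod3, Inf2 and Daam1 lay inside the middle range of their class between its quartiles, as did Daam2. How far gene size accounts for the differences of the formins was not tested.

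**Figure D4:**
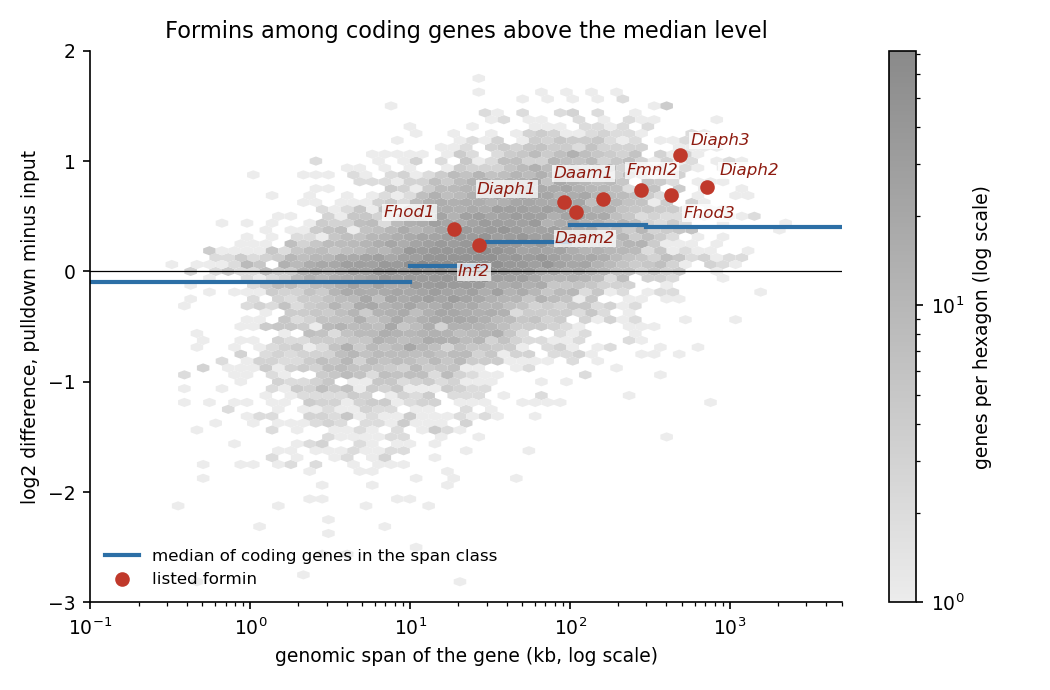
Log2 difference, pulldown minus input (vertical axis), against genomic span in kb (horizontal axis, log scale) for 11764 coding genes above the median of all probe sets (grey hexagons, shaded by number of genes), with the median of each span class (blue) and the 9 listed formins (red). The formins follow the upward course of the class medians from Fhod1 and Inf2 at 10 to 30 kb to Diaph2, Diaph3 and Fhod3 above 300 kb, and all lie above the blue line of their class.

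By Euclidean distance over the 6 arrays after subtracting each gene's mean, the genes closest to Diaph3 among 11473 searched were Nrip1, a nuclear receptor corepressor (distance 0.035), Akap11, an anchoring protein for protein kinase A (0.063), and Ticrr, a replication initiation factor (0.066). Their differences were 1.05, 1.02 and 1.04. Closest to Inf2 were Sirpa (distance 0.026), Scamp5 (0.028) and the BMP antagonist Nog (0.031), at 0.25, 0.25 and 0.24.

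Of 25 measured partners and regulators of formins, 15 were called higher, 5 lower and 5 neither way, against 31.3% of all genes higher and 17.3% lower. In 24 of the 25 the higher group mean exceeded the median of all probe sets. Of all genes at that level, 45.9% were called higher and 26.8% lower. Whether the partners depart from those shares was not tested. The median of the 25 was 0.29, and 0.19 after cyclic loess, where 14 of them were higher and 7 lower. Over all 19938 genes, 5127 were higher and 4565 lower after cyclic loess. By adjusted p, exchange factors that load small GTPases with GTP came first: Arhgef12 was higher by 1.21 ± 0.030, Arhgef11 by 1.13 ± 0.030 and Ect2, which acts in cytokinesis, by 1.03 ± 0.027. Iqgap1, a scaffold that binds Diaph1, was higher by 0.85 ± 0.029 (limma adjusted p of these 4 genes between 2.3e-07 and 4.7e-07). The next genes were picked after their values were seen. Apc, a tumour suppressor that binds microtubules and formins, was higher by 1.08 ± 0.041, more than Ect2. The profilins, which deliver actin monomers to formins, were lower, Pfn1 at -0.21 ± 0.029 and Pfn2 at -0.33 ± 0.050. Dishevelled genes, partners of the Daam formins, split, with Dvl1 at 0.61 and Dvl3 at 0.29 higher and Dvl2 at -0.26 lower. Rock1, the kinase that acts on Fhod1, was higher by 0.70 ± 0.073, and Spire1, which nucleates actin together with Fmn1 and Fmn2, by 0.77 ± 0.042.

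Formins raise the activity of the transcription factor SRF by drawing actin monomers away from its coactivators, the MRTF proteins. Of 16 genes of that axis, 8 were called higher, 3 lower and 5 neither way (median 0.06, and -0.02 after cyclic loess, where 6 were higher and 7 lower). Over all 19938 genes, 5127 were higher and 4565 lower after cyclic loess. In all 16 genes of the axis the higher group mean exceeded the median of all probe sets. Among all genes for which that holds, 45.9% were called higher and 26.8% lower. Whether the list departs from these shares was not tested. The factors themselves were higher, Mrtfb by 0.93 ± 0.045, Mrtfa by 0.76 ± 0.052 and Srf by 0.61 ± 0.043, while the small actin-binding protein Tagln2 was lower, at -0.76 ± 0.035.

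The other actin nucleators and elongators had a median of 0.00, or -0.05 after cyclic loess. Of the 22 with a value, 7 were called higher, 6 lower and 9 neither way, and after cyclic loess 5 were higher and 10 lower. Over all genes 31.3% were called higher and 17.3% lower. After cyclic loess 25.7% of all genes were higher, and 4565 of 19938 were lower. In 19 of the 22 the higher group mean exceeded the median of all probe sets. Among all genes for which that holds, 45.9% were called higher and 26.8% lower. Whether this list departs from these shares was not tested. The nucleators Cobl and Jmy were higher by 1.00 ± 0.025 and 0.85 ± 0.057 and the elongator Enah by 0.33 ± 0.026, whereas Arpc1a, a subunit of the complex that starts branched filaments, was lower at -0.41 ± 0.041. The lowest member, named after its value was seen, was another subunit of that complex, Arpc5l at -0.61 ± 0.062. No test of the difference between the formins and these lists was made.

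**Figure D5:**
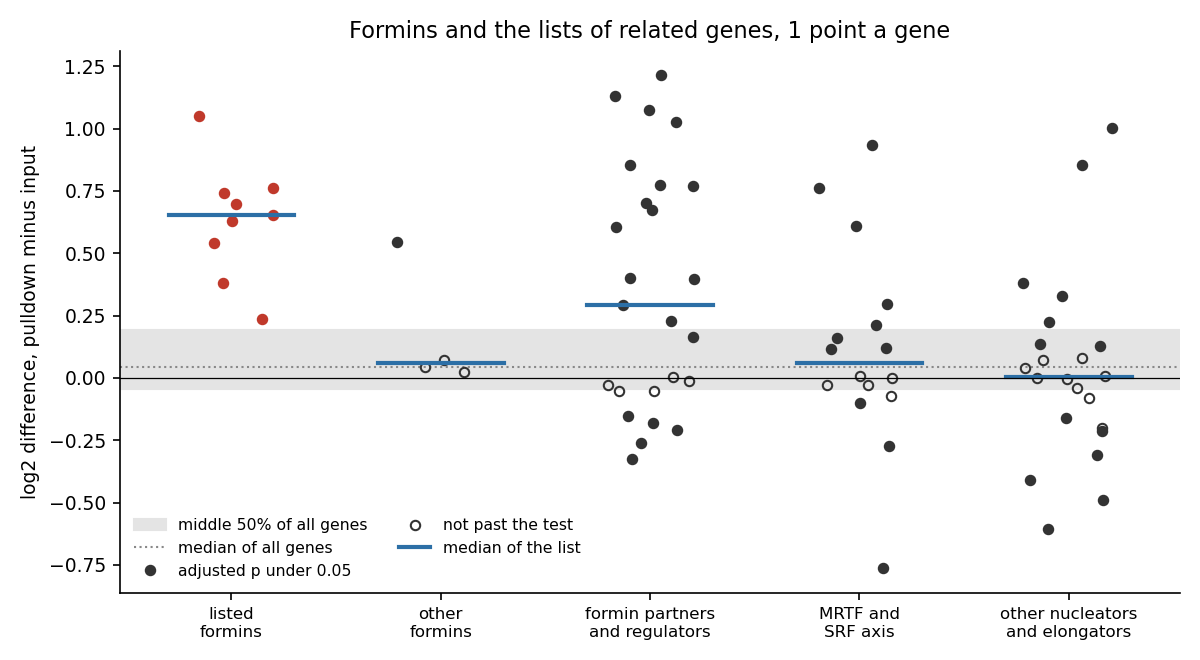
Log2 difference, pulldown minus input (vertical axis), of each gene in the 9 listed formins (red) and 4 lists of related genes (horizontal axis), filled where the limma adjusted p is under 0.05, with the median of each list (blue), the middle range of all genes (grey band, -0.04 to 0.19) and their median (dotted). All 9 formin points lie above the grey band, while each of the other lists has points in or below it.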

How the data were processed

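Expression was measured on 6 arrays, 3 of input and 3 of Staufen2 pulldown RNA. The deposited values are log2 expression values per probe set, which per the submitters' processing notes come from RMA. The notes name limma too. Versions and genome build are not given in the sources used here. Of 35556 probe sets, 21789 had 1 gene symbol, 1621 several and 12146 no listed gene. Symbols were updated through Entrez identifiers, matched for 19856 of 19938 genes, to a RefSeq table (GRCm38.p6) that also gave spans. No coordinates are given. The brightest probe set stood for a gene, and every formin had 1.

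Differences came from limma 3.58.1 in R 4.3.3 (2-sided, no covariates, Benjamini-Hochberg over all genes, call at 0.05). SEs are moderated. Paralogue pairs were compared by exact permutation with scipy 1.17.1, and figures drawn with matplotlib 3.10.9. The pairs were fixed as 6, and 5 could be measured. The number of arrays limits the precision, with a median SE of 0.039 over all genes. The rule for named genes took all formins, Stau1, Stau2, the 4 genes with the smallest adjusted p in each list, and the 3 genes closest to the formins of largest and smallest difference. Predicted genes, microRNAs, small nucleolar RNAs, receptor families and genes with a mean of 6.54 or less were left out of that search. Apart from cell type markers, genes named outside the rule are marked in the text as chosen after their values were seen. The members and lists were chosen with earlier results of these data known, and a further list is not reported here. In simulated data with 200 of 19938 genes moved, 80.0% were called at a log2 difference of 0.25 and all at 0.5 and 1, with 14 false calls among 199. The simulation drew independent normal noise. It moved far fewer genes than the 6246 higher and 3459 lower in the data, so its shares need not hold there.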

Additional observations from a re-analysis of the deposited data

How the results depend on the processing

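Each of the 9 formins was higher and past the test in all 12 refits of its difference (108 values in all): a replicate block, cyclic loess, centring on the brightest 25% of probe sets, a filter on dim genes, an intensity trend, the mean of probe sets, and leaving out each of the 6 arrays. The mean of probe sets could not change a formin's values, since every formin had 1 probe set. The block, filter and trend left each difference as it was and altered only its test. Over the 12 refits the differences ranged from 0.12 to 0.26 for Inf2 and from 0.95 to 1.08 for Diaph3. The test against a 1.2-fold change, run for counts, called 3034 genes higher and 1822 lower. It asks for a larger change by construction. After cyclic loess 7 genes of the MRTF and SRF list and 10 other nucleators and elongators were lower. Lower calls over all 19938 genes rose as well, from 3459 as deposited to 4565 after cyclic loess. The cause of these shifts was not tested. The labels do not say whether replicate numbers pair input with pulldown. Deviations of same-numbered arrays correlated at 0.02, 0.11 and -0.06, and 2 of 6 arrays correlated best with their own number. With 3 arrays in a group, these values cannot settle whether the samples were paired. With the replicate block 6247 genes were higher and 3467 lower, and 9 formins were higher. Array signal has no depth in reads, and the input means of Fmnl1, Fmn2 and Grid2ip lay below the median of all probe sets.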

Other observations

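Within the pulldown, Diaph1, Daam2, Fhod1 and Fhod3 each had their lowest value on the second array, which was the lowest of the 3 for 42.4% of all genes. Without that array the difference of Fhod1 was 0.44, and that of Daam2 was 0.59. Stau1, the paralogue of Stau2, was higher by 0.19 ± 0.029 (limma adjusted p = 0.00088), less than any of the 9 measured formins. After cyclic loess Stau1 was higher by 0.09 (adjusted p = 0.026). Stau2 did not pass in the deposited values (-0.02, limma adjusted p = 0.52) and was lower after cyclic loess, at -0.13 (adjusted p = 0.0052).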
